A study of Mus musculus with 12 samples.

Results

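The endothelin system was taken here as 7 genes: the peptide genes Edn1, Edn2 and Edn3, the receptor genes Ednra and Ednrb, and the converting enzyme genes Ece1 and Ece2. A gene was measured by the array probesets to which the platform annotation gives its symbol alone, and 6 of the 7 had such probesets, 75 in all, among 20352 genes and 212097 probesets with 1 symbol. Ednra was not analysed here. The samples were heart tissue of C57BL/6J mice 12 weeks of age, taken 2 weeks after surgery. One group was the border zone beside an infarct in 6 infarcted hearts, and the other was the matching site in 6 sham-operated hearts, which the labels call the border zone of a sham infarct. The labels name no genotype change and no drug in either group. The series describes the 6 samples per condition as biological replicates, and each gave 1 one-colour array of total RNA.

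Endothelins are short peptides cut from long precursors, first by furin-type proteases to big endothelin and then by endothelin-converting enzymes to the active form. Endothelin-1 is made mainly by endothelial cells and acts on nearby cells through 2 G-protein-coupled receptors. The A receptor of smooth muscle, cardiomyocytes and fibroblasts mediates constriction, growth and matrix production, while the B receptor of endothelial cells releases vasodilators and clears the peptide from the blood.

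The arrays had medians from 6.997 to 7.026 on the log2 scale in the sham group and from 7.045 to 7.058 in the infarcted group. The tissue carried strong cardiomyocyte signal, with the mean of 8 cardiomyocyte markers between 13.08 and 13.14 in sham arrays and between 12.92 and 13.04 in infarcted ones. Infarcted replicates 4 and 5 had the highest mean of 5 atrial markers (8.84 and 8.01, against 6.88 to 7.78 in the other infarcted arrays). Infarcted replicate 5 also had the highest mean of 5 adipocyte markers (7.83, against 6.11 to 6.65). Results are therefore also given without infarcted replicates 4 and 5 where that moved them, which leaves infarcted replicate 6 in.

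Edn1 and Ece2 were higher in the infarcted border zone, each by about 0.5 on the log2 scale (1.44-fold and 1.4-fold), so that 2 of the 6 measured genes rose. Ednrb, Edn2, Edn3 and Ece1 did not pass the test. The test was limma's moderated test on all genes with Benjamini-Hochberg adjustment and a threshold of 0.05. It called 20.3% of all 20352 genes, 10.1% as higher and 10.2% as lower, so calls were common in this comparison. The groups overlapped for each of the 6 genes, while 11.3% of all genes had groups that did not overlap. The Edn1 call lay at the threshold (adjusted p = 0.0499) and the Ece2 call well inside it (adjusted p = 0.00584, limma). Without infarcted replicates 4 and 5, Ece2 was the 1 gene called (adjusted p = 0.0195) and Edn1 was not (0.62, adjusted p = 0.0586). As these are pieces of whole tissue, more cells of a type and more RNA per cell cannot be told apart.

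**Figure D1:**
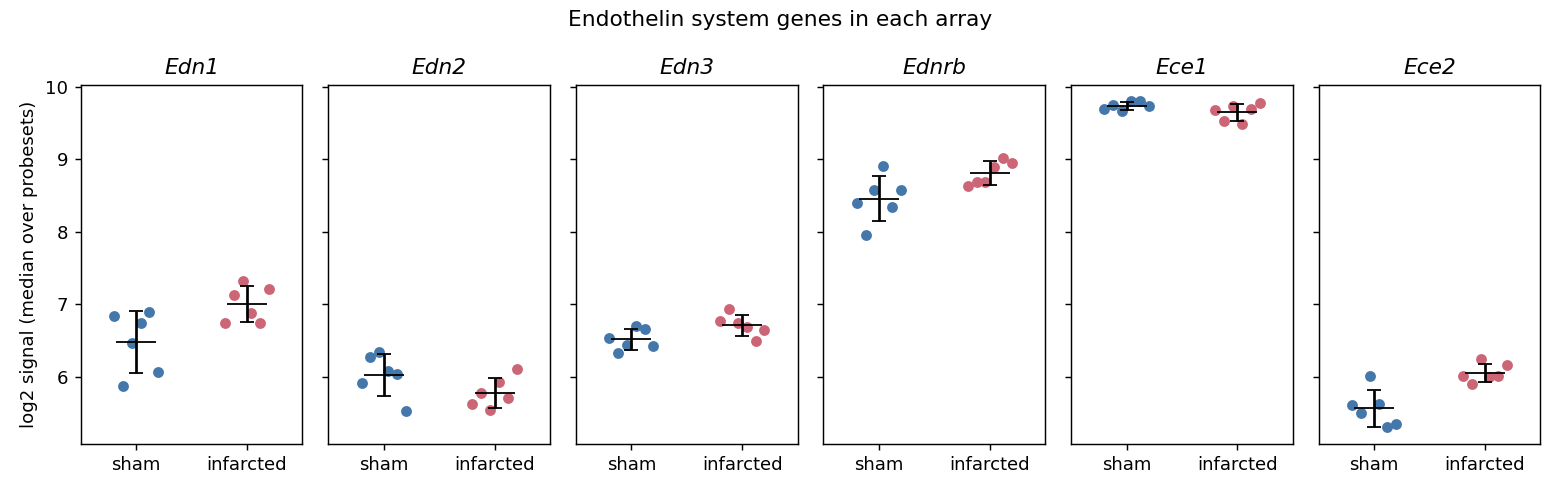
Log2 signal (vertical axis, median over a gene's probesets) of the 6 measured endothelin system genes in 6 sham and 6 infarcted arrays. Points are arrays, and the bars are the mean and SD. For Ece2, 4 of the 6 infarcted arrays lie above the highest sham array, and for Edn1 3 of 6 do; the groups overlap for every gene.

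Edn1 encodes the precursor of endothelin-1, the main endothelin of blood vessels. Its log2 signal ranged from 5.88 to 6.90 in sham arrays, with a median of 6.61. In infarcted arrays it ranged from 6.74 to 7.33, with a median of 7.003. All 6 infarcted arrays lay above the sham mean, but the ranges overlapped, as sham replicates 1, 4 and 5 (6.84, 6.75 and 6.90) lay above the lowest infarcted array. Sham replicates 2 and 6 were the lowest arrays (5.88 and 6.06). The means were 6.48 ± 0.43 and 7.01 ± 0.25 (SD, n = 6 arrays each). The difference was 0.52 with a standard error of 0.18 (95% interval 0.15 to 0.90; limma adjusted p = 0.0499), a ratio of 1.44 (1.11 to 1.87). The call ended on leaving out any 1 of 7 arrays, namely sham replicates 2, 3 and 6 and infarcted replicates 2, 3, 4 and 6 (adjusted p up to 0.108). Centring each array on its median ended it too (adjusted p = 0.0682), as did quantile normalization (adjusted p = 0.0695).

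The single probesets of Edn1 pointed the same way. All 8 had a higher mean in the infarcted group, and 5 of the 8 passed when all 241576 probesets were tested (limma), where 6.39% of probesets were called higher and 4.3% lower. Of the 8, 3 passed without infarcted replicates 4 and 5 together, with arrays centred or quantile-normalized, with the replicate block, and without sham replicate 2, 5 or 6 or infarcted replicate 2, 3, 5 or 6 alone. When the 8 probesets were averaged, Edn1 rose by 0.66 (limma adjusted p = 0.000239). The probeset with the largest change ranged from 4.34 to 5.81 in sham arrays, with a median of 5.30, and from 6.29 to 6.94 in infarcted arrays, with a median of 6.57. Its groups did not overlap, and its change was 1.40 with a standard error of 0.22 (limma adjusted p = 0.00163). In 3 of the 8 probesets every infarcted array lay above every sham array, as in 4.56% of all probesets. At the other end, the first probeset by identifier changed by 0.15 (limma adjusted p = 0.754), and its groups overlapped widely (5.78 to 7.08 in sham, 6.14 to 6.998 in infarcted arrays).

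The probesets of Edn1 thus differed in how much they changed. limma's diffSplice F test, which asks whether the probesets of a gene change unequally, called Edn1 over its 8 probesets (adjusted p = 0.0158). It called 9.34% of the 15004 genes tested. That call ended on leaving out sham replicate 1 or infarcted replicate 1, 2 or 5 (adjusted p up to 0.0966) and without infarcted replicates 4 and 5 together (adjusted p = 0.136). No position along the transcript is given for a probeset in the sources used here. A signal near background also limits the change that a probeset can show. Among the 8 Edn1 probesets, the one with the lowest sham mean (5.20) changed most, by 1.40, and the next lowest (5.47) changed by 0.72. The probeset with the highest sham mean (7.50) changed by 0.47, and the smallest change (0.15) came at a sham mean of 6.37. The part of low signal in the unequal changes was not tested.

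Ece2 encodes the converting enzyme that works at the acid pH of the secretory pathway and is best known from nervous tissue. Its signal was low, from 5.30 to 6.01 in sham arrays with a median of 5.55, and from 5.90 to 6.24 in infarcted arrays with a median of 6.01. The groups touched through sham replicate 3 (6.01), which lay above infarcted replicates 2 and 4, while the other 5 sham arrays were below every infarcted array. The means were 5.57 ± 0.25 and 6.05 ± 0.13 (SD, n = 6 each). The difference was 0.49 with a standard error of 0.11 (95% interval 0.25 to 0.72; limma adjusted p = 0.00584). The call held whichever of the 12 arrays was dropped (adjusted p from 0.000561 to 0.0159). Of the 23 probesets of Ece2, 10 had a mean under 5.58, the 30th percentile of all probesets, and with those left out Ece2 still passed (0.42, limma adjusted p = 0.0366).

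The rise of Ece2 was uneven over its probesets. Of the 23, 17 had a higher mean in infarcted arrays and 5 passed (limma, all probesets tested), with changes from -0.23 to 1.37. Of all probesets, 6.39% were called higher. Of the 23, 2 passed without infarcted replicates 4 and 5 together, and 3 without sham replicate 1, 4 or 5 or infarcted replicate 1, 4 or 6 alone, or with dim probesets left out. The probeset with the largest change ranged from 4.75 to 6.38 in sham arrays, with a median of 5.25, and from 6.41 to 7.67 in infarcted arrays, with a median of 6.65. It was the 1 probeset of the 23 whose groups did not overlap (1.37, standard error 0.29, limma adjusted p = 0.00959). That is near the share over all probesets, as in 4.56% every infarcted array lay above every sham array. diffSplice called the gene over its 13 brighter probesets (adjusted p = 0.00198), whichever of the 12 arrays was dropped (adjusted p at most 0.0342), and without infarcted replicates 4 and 5 together (adjusted p = 0.0378).

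In the order of their identifiers, the Ece2 probesets showed a break that was noticed in the values and has no test. The first 7 had sham signals from 4.03 to 8.88 with a median of 7.22, and a median change of -0.02, and 1 of them passed, by 0.69. The other 16 had sham signals from 3.53 to 6.75 with a median of 5.14, and a median change of 0.50, and 15 of the 16 were higher. RefSeq places a second gene over the same stretch of the genome, Eef1akmt4-ece2, a readthrough gene that joins a neighbouring methyltransferase gene to Ece2. The platform annotation does not use that name, and which transcript a probeset reads was not analysed here, so signal of Ece2 and of the readthrough gene cannot be told apart.

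**Figure D2:**
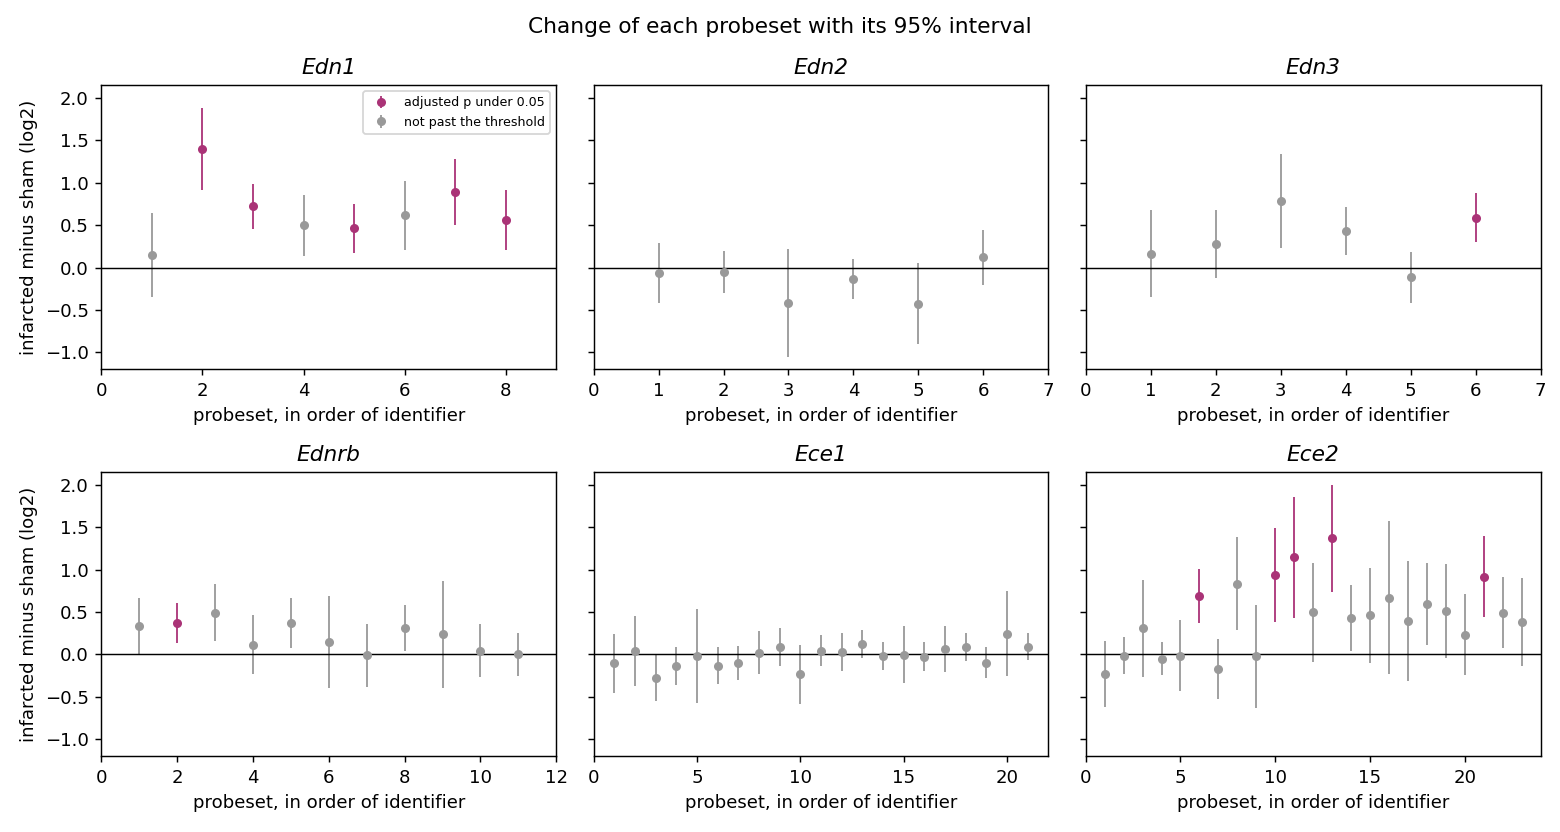
Change of every probeset of the 6 genes, as infarcted minus sham on the log2 scale (vertical axis) with its 95% interval, in order of probeset identifier (horizontal axis). Purple points passed at an adjusted p of 0.05 over all probesets. All 8 Edn1 probesets lie above 0, and Ece1 probesets lie close to 0. The first 7 Ece2 probesets lie from -0.23 to 0.69 with a median of -0.02, and the sixth of them passed. From the eighth on, Ece2 probesets lie mostly above 0.

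The stretches of DNA upstream of these 2 genes are shown because they were the members that rose. They were searched on both strands for 5 motifs: the CCAAT box (CCAAT), the core of the hypoxia response element (ACGTG), the GATA site (AGATAA), the AP-1 site (TGANTCA) and the TATA box (TATAAA). Each sequence is the 250 bases before the RefSeq start in build GRCm38.p6, on the plus strand, with matches in capitals. Edn1 lies at chr13:42301226-42301475 and Ece2 at chr16:20629601-20629850.
Edn1: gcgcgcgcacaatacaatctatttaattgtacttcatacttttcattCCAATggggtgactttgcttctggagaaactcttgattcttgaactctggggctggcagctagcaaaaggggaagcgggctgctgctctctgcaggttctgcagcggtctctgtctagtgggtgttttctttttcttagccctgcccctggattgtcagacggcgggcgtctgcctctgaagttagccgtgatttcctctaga
Ece2: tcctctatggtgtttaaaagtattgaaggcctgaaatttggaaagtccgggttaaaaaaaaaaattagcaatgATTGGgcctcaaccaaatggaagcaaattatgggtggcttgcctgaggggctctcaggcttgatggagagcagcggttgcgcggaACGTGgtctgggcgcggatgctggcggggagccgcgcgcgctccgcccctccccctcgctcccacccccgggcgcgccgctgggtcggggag
The Edn1 window held 1 CCAAT box, whose first base lies 203 bases before the start. The Ece2 window held a CCAAT box on the other strand, 177 to 173 bases before the start, and a hypoxia core 92 to 88 bases before it. The matches do not overlap each other. These motifs are common, as 33.8% of all 32851 such windows held a CCAAT box and 16.6% a hypoxia core. Members that did not pass held them too. The Ednrb window held a CCAAT box, and of 4 Ece1 windows 2 held a CCAAT box and 1 a hypoxia core. The Edn2 and Edn3 windows had neither motif. GATA, AP-1 and TATA letters, found in 9.99%, 6.75% and 12.4% of windows, were in neither the Edn1 nor the Ece2 window. Sites outside these 250 bases, or with other letters, were not searched for.

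The other 2 peptide genes did not pass. Edn2 encodes endothelin-2, which differs little from endothelin-1 and binds both receptors alike. It ranged from 5.54 to 6.34 in sham arrays, with a median of 6.06, and from 5.55 to 6.10 in infarcted arrays, with a median of 5.75. The groups overlapped over nearly their whole range, although 5 of 6 infarcted arrays lay below the sham mean. The difference was -0.25 (95% interval -0.53 to 0.03; limma adjusted p = 0.215), and none of its 6 probesets passed. Leaving out dim probesets gave -0.12 (limma adjusted p = 0.29), and averaging the probesets gave -0.16 (limma adjusted p = 0.0674). Without sham replicate 6, the lowest sham array, the difference was -0.35 and passed (limma adjusted p = 0.0452).

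Edn3 encodes endothelin-3, which prefers the B receptor and is known for its role in neural crest cells. It ranged from 6.33 to 6.71 in sham arrays, with a median of 6.49, and from 6.50 to 6.93 in infarcted arrays, with a median of 6.72. The 3 highest infarcted arrays exceeded every sham array, and the other 3 lay within the sham range. The difference was 0.19 (95% interval 0.01 to 0.38; limma adjusted p = 0.137). This value depended on how the 6 probesets were joined. Their mean rose by 0.36 and passed (limma adjusted p = 0.00782), while with the 2 dim probesets left out the median differed by 0.05 (adjusted p = 0.796). The 1 Edn3 probeset of 6 that passed was dim (0.59, limma adjusted p = 0.0136). It ranged from 4.62 to 5.49 in sham arrays and from 5.57 to 5.89 in infarcted arrays. Over all probesets, 6.39% were called higher, and in 4.56% every infarcted array lay above every sham array. No Edn3 probeset passed without infarcted replicates 4 and 5 together.

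Ednrb, the gene of the B receptor, had a log2 signal from 7.95 to 8.90 in sham arrays, with a median of 8.49. It ranged from 8.63 to 9.02 in infarcted arrays, with a median of 8.79. All 6 infarcted arrays lay above the sham mean, but sham replicate 4 (8.90) lay above 4 of the 6 infarcted arrays. The means were 8.46 ± 0.32 and 8.81 ± 0.16 (SD, n = 6 each). The difference of 0.35 missed the threshold (95% interval 0.07 to 0.64; limma adjusted p = 0.0759), and it passed without sham replicate 4 (0.44, adjusted p = 0.0205). Averaging its probesets gave 0.22 (limma adjusted p = 0.17). Of its 11 probesets 10 had a higher mean in infarcted arrays and 1 passed (0.37, limma adjusted p = 0.0497). That probeset went from a sham range of 10.10 to 10.46 to an infarcted range of 10.53 to 11.04. Over all probesets, 6.39% were called higher, and in 4.56% every infarcted array lay above every sham array. The number of called Ednrb probesets was also 1 without sham replicate 4 or infarcted replicate 1. It was 0 on leaving out any other single array, without infarcted replicates 4 and 5 together, and with arrays centred or quantile-normalized or the replicate block, and 2 with dim probesets left out. diffSplice did not call its probesets unequal (adjusted p = 0.877).

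Ece1 encodes the main converting enzyme of blood vessels. It was measured by 21 probesets, none under the 30th percentile, and its arrays agreed closely, from 9.67 to 9.80 in the sham group (median 9.74) and from 9.49 to 9.78 in the infarcted group (median 9.69). Infarcted replicates 2 and 4 were the lowest (9.53 and 9.49), and the other 4 lay within the sham range. The difference was -0.09 (95% interval -0.24 to 0.05; limma adjusted p = 0.393), which leaves room for a fall of up to 0.24 or a rise of up to 0.05. None of the 21 probesets passed in limma, and their changes ran from -0.28 to 0.24, with 10 above and 11 below 0. At an unadjusted p under 0.05, 1 of the 21 differed. RefSeq gives Ece1 4 start sites, from which variants with different N-terminal ends arise. diffSplice did not call its probesets unequal (adjusted p = 0.933).

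The converting enzymes were also compared directly. The per-array difference Ece1 minus Ece2 was lower in the infarcted group by 0.58, in 6 of 6 arrays against the sham mean (two-sided exact permutation test over the 924 regroupings, p = 0.00649, adjusted over 3 such comparisons p = 0.0195). Relative to the sham mean it lay from -0.68 to -0.49 in infarcted arrays and from -0.52 to 0.32 in sham arrays, with sham replicate 3 the 1 array inside the infarcted range. Without infarcted replicates 4 and 5 the value was -0.57 (exact permutation, adjusted p = 0.0571). The change therefore differed between the 2 genes, which says nothing of which enzyme was more abundant. The matching comparison of the A and B receptors was not made.

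Edn1 and Ednrb were set against 10 markers of endothelial cells, where both are expressed. Of the 10 markers 1 passed, the transcription factor gene Erg (0.35, limma adjusted p = 0.0257), and of all genes 10.1% were called higher. The mean endothelial signal was 9.71 to 10.02 in sham arrays and 9.84 to 10.10 in infarcted arrays. Edn1 relative to that mean was higher in infarcted arrays by 0.38, in 6 of 6 arrays, but the difference did not pass (exact permutation, p = 0.121, adjusted p = 0.182). The sham arrays alone spread from -0.64 to 0.50 on this measure. With the mean over probesets the value was 0.51 and passed (exact permutation, adjusted p = 0.00325). Ednrb relative to the endothelial mean was higher by 0.21, in 5 of 6 arrays, and did not pass (exact permutation, p = 0.242, adjusted p = 0.242). Averaging the probesets gave 0.065 (exact permutation, adjusted p = 0.675), and the value was 0.12 without infarcted replicates 4 and 5 (adjusted p = 0.552).

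**Figure D3:**
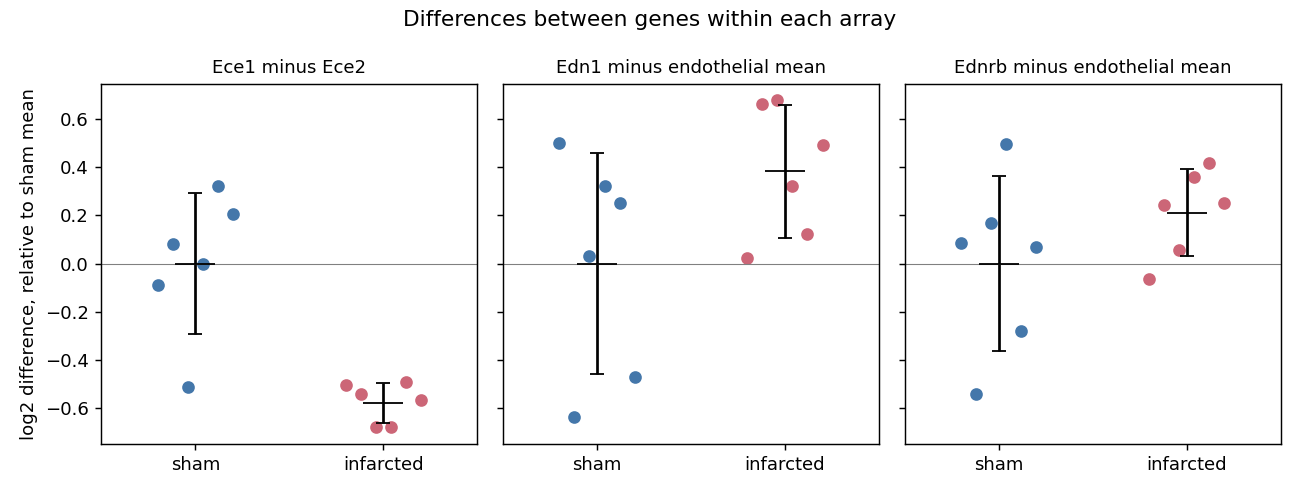
Log2 difference within each array, relative to the sham mean (vertical axis), for Ece1 minus Ece2, Edn1 minus the endothelial marker mean and Ednrb minus that mean. Points are arrays, and the bars are the mean and SD. The Ece1 to Ece2 difference is lower by 0.58 in infarcted arrays, and the 2 endothelial comparisons overlap.

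Markers of other cell types moved with the infarct as well. Over all genes, 10.1% were called higher and 10.2% lower, and 11.3% had groups that did not overlap. All 8 fibroblast markers rose, with a mean signal from 8.77 to 9.08 in sham arrays and from 10.06 to 10.39 in infarcted arrays. Of 8 macrophage markers 7 rose (means 7.69 to 8.06 and 8.32 to 8.78), and of 10 smooth muscle and pericyte markers 6 rose (8.56 to 8.91 and 9.01 to 9.20). Of 5 lymphatic endothelial markers 3 rose, Pdpn (1.15), Mmrn1 (0.42) and Flt4 (0.27). Prox1 fell (-0.41), and Lyve1 did not pass (-0.29). The mean over the 5 was 7.95 to 8.14 in sham arrays and 8.20 to 8.33 in infarcted arrays, with no overlap. Pdpn had the largest change of the 5, so that mean does not show a shared rise of the list. Of 5 measured Schwann cell and glial markers 2 fell and none rose (6.11 to 6.34 and 5.95 to 6.17). The part of fibroblasts, macrophages, lymphatic endothelium and mural cells in the signal of Edn1, Ece2 and Ednrb was not tested.

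Among the other genes that process or break down endothelin peptides, 2 of 9 rose and 1 fell, with a median change of 0.03. Over all genes, 10.1% were called higher and 10.2% lower, with a median change of -0.04. Mme encodes neprilysin, a membrane peptidase that degrades endothelin-1, and its means went from 6.63 ± 0.24 to 5.77 ± 0.41 (SD, n = 6 each), a fall of 0.85 (limma adjusted p = 0.00254). The matrix metalloproteinase gene Mmp2, whose enzyme can also cut big endothelin, rose by 1.69, and the proprotein convertase gene Pcsk5 rose by 0.43 (limma adjusted p = 1.58e-07 and 0.00268). Furin, the convertase best known for the first cut, differed by -0.05 (limma adjusted p = 0.767).

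Of 14 genes that regulate Edn1 transcription, 2 rose and 2 fell, with a median of 0.17. Such counts are near the shares over all genes (10.1% higher and 10.2% lower). Hif1a, the hypoxia-inducible factor, rose by 0.58, and Nfkb1, an NF-kappa-B subunit, by 0.25 (limma adjusted p = 8.56e-05 and 0.0309). The Nfkb1 call ended on leaving out sham replicate 1, 4, 5 or 6 or infarcted replicate 2, 4 or 5 (adjusted p up to 0.0684), without infarcted replicates 4 and 5 together (0.22, adjusted p = 0.128), and after centring each array on its median (0.21, adjusted p = 0.0596). Agtr1a, the receptor through which angiotensin II raises Edn1, fell by 0.64, and Gata2, an endothelial factor that binds the Edn1 promoter, fell by 0.44 (limma adjusted p = 5.75e-05 and 0.00658). Klf2, which represses Edn1 under flow, differed by 0.03 (limma adjusted p = 0.938).

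Of 28 measured genes that carry or limit the signal of endothelin receptors, 9 rose and 2 fell, with a median of 0.17. The shares over all genes were 10.1% higher and 10.2% lower. Grk5, a receptor kinase, rose by 0.69, and the arrestins Arrb2 and Arrb1 rose by 0.53 and 0.38 (limma adjusted p = 2.87e-05, 0.000266 and 0.00142). Rgs2, which shortens signalling through the G protein Gq, fell by 0.87, and the G protein gene Gna12 fell by 0.30 (limma adjusted p = 0.00219 and 0.00532). The genes act downstream of many receptors, not of endothelin alone.

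Vasodilator systems that oppose endothelin had 5 of 13 genes higher and none lower, with a median of 0.17. Among all genes 10.1% were called higher and 10.2% lower. Ptgis, the prostacyclin synthase, rose from 8.47 ± 0.14 to 10.05 ± 0.27 (SD, n = 6 each), by 1.58, and Ptgs2, which supplies its substrate, rose by 1.23 (limma adjusted p = 4.8e-07 and 0.000203). Calcrl, a receptor for adrenomedullin, rose by 0.56 (limma adjusted p = 0.000116). Nos3, the endothelial nitric oxide synthase that the B receptor activates, differed by 0.02 (limma adjusted p = 0.865).

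**Figure D4:**
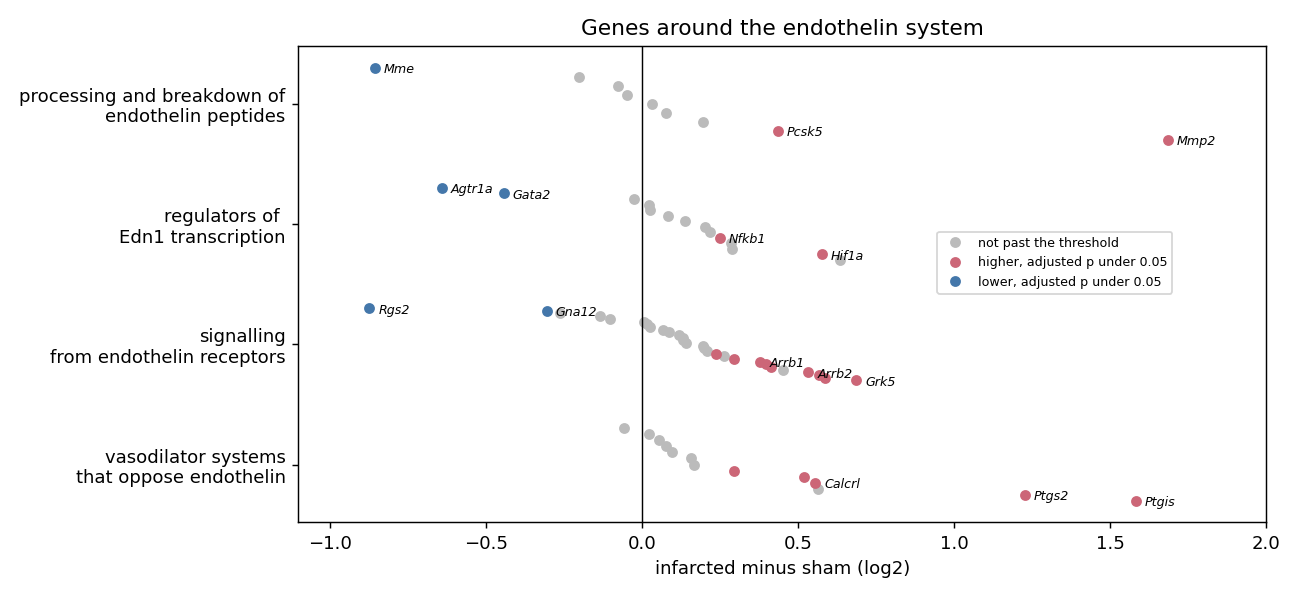
Change of each gene (horizontal axis, infarcted minus sham on the log2 scale) in 4 lists of genes around the endothelin system, stacked by size of change within a list. Red and blue points passed as higher or lower at an adjusted p of 0.05 and grey points did not. Mmp2 at 1.69 and Ptgis at 1.58 lie farthest to the right, and Rgs2 at -0.87 and Mme at -0.85 farthest to the left.

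The genes whose profile was nearest to that of Edn1 over the 12 arrays, each taken relative to its own sham mean, were Xkr4, Dtx4 and Sh3rf3. Their root-mean-square difference from Edn1 was 0.20, 0.22 and 0.22 on the log2 scale, among 12002 genes with at least 3 probesets and a mean at or above 5.58. For Ece2 they were Qsox1 (0.10), Plod3 (0.11) and Fut11 (0.12). Each of the 6 genes differed by between 0.44 and 0.53. They were chosen for nearness, so a change close to that of Edn1 or Ece2 follows from the choice.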

How the data were processed

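Labels give Trizol extraction and biotin-labelled cDNA made with a whole-transcript kit. The deposited values are log2 signal per probeset, as judged from their range (1.52 to 14.37) and nearly equal array medians. Affymetrix Power Tools were used, per the submitters' processing notes; neither the summary method, the normalization nor the log base is stated. Of 241576 probesets, 212097 had 1 gene symbol in the platform annotation, updated through RefSeq names. A gene's value was the median over its probesets, with no filter on dim signal. Log2 changes of dim genes can understate the change of RNA, which was not tested here. Genes, and separately probesets, were each tested in limma 3.58.1 (R 4.3.3) (two-sided, Benjamini-Hochberg over the whole table). Unequal probesets were tested with diffSplice on probesets at or above the 30th percentile. Differences between genes used exact permutation over the 924 regroupings. Scripts were tested on simulated data. Promoters are from RefSeq (GRCm38.p6). Figures used matplotlib 3.10.9. The members and lists were chosen with earlier results of these data known. Named were all members, up to 3 called genes per direction and list, and 3 nearest profiles per called member. Also named were 3 genes (Furin, Klf2, Nos3) chosen after their values were seen. The marker genes Erg, Pdpn, Mmrn1, Flt4, Prox1 and Lyve1 were likewise named with their values known. The number of arrays limits the precision. A few listed genes are not reported here.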

Additional observations from a re-analysis of the deposited data

Results flagged for a closer look

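With 82 groups of 6 arrays examined, of which chance flags about 1 in 20, 5 held an array far from the others. In the sham group, replicate 6 had a Ptgis signal of 8.75, with the next array at 8.50. The mean of cardiomyocyte markers was 13.08 in sham replicate 3, with the next at 13.12. The mean of epicardial and mesothelial markers was 6.13 in sham replicate 6 (next 5.74) and 6.95 in infarcted replicate 5 (next 5.90). The mean of adipocyte markers was 7.83 in infarcted replicate 5 (next 6.65). No endothelin system gene was flagged in either group.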

How the results depend on the processing

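Ece2 kept its direction and call in all 18 alternatives (0.42 to 0.57). Edn1 kept its direction but lost its call when arrays were centred on their medians (0.48) or quantile-normalized (0.48), with the replicate number as a block (0.52, adjusted p = 0.11), and without infarcted replicates 4 and 5, an alternative added after seeing the data (0.62). It ranged from 0.40 to 0.61 with 1 array left out. The number of called members was 1 in each of those 4 settings, 3 with the mean over probesets, and 1 to 3 with 1 array left out. With the mean over probesets Edn3 (0.36) and Edn1 against endothelial markers (0.51) passed. With 1 array left out Edn2 ranged from -0.35 to -0.19 and Ednrb from 0.25 to 0.44; over the other alternatives they ranged from -0.29 to -0.12 and from 0.22 to 0.35. The converting enzyme difference was -0.58 with the block (adjusted p = 0.0938, the smallest that this sign-flip test of 6 pairs can give to 1 of 3 comparisons) and -0.57 without infarcted replicates 4 and 5. Same-numbered arrays deviated together with correlations from -0.05 to 0.10, and 2 of 6 sham arrays correlated best with their own number, so the numbers were not taken as pairs; the block gave 3802 called genes against 4124. Member probesets called were 12, 5 without infarcted replicates 4 and 5, and 7 to 12 with 1 array left out. Unequal probesets were called in 1401 genes, and in 891 without those 2 arrays. The part of the smaller number of arrays in those falls was not tested. All genes called were 2050 higher and 2074 lower, or 1748 and 2956 with arrays centred. The causes of the other shifts were not tested. For the called genes named from the 4 lists and the nearest profiles, 369 of 378 alternative fits kept direction and call. The 9 that lost it were of Nfkb1. The receptor comparison and Ednra against mural markers were planned and not run.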
